A study of Mus musculus with 12 samples.

Results

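Matrix metalloproteinases and their tissue inhibitors were measured in mouse embryonic fibroblasts (MEFs) that express different Nras variants from the endogenous gene. The 10 genes, taken by symbol from the 24419 genes counted, were the metalloproteinase genes Mmp2, Mmp3, Mmp9, Mmp10, Mmp11, Mmp13 and Mmp14 and the inhibitor genes Timp1, Timp2 and Timp3. MEFs came from C57BL/6 TN embryos, which carry the Tyr::CreERT2 transgene and are homozygous for an Nras allele behind a removable stop cassette. The residue encoded at codon 61 names the genotypes: arginine (61R/R), histidine (61H/H), proline (61P/P) or glutamine, the wild-type residue (61Q/Q). All cultures, 61Q/Q included, were infected with an adenovirus carrying Cre recombinase and eGFP, which removes the cassette from both alleles, and RNA was isolated after 6 days. The Tyr promoter is a melanocyte promoter, so recombination in these fibroblasts rested on the virus. There were 12 libraries from 12 cultures, each from a separate embryo, with 3 cultures per genotype.

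Metalloproteinases are zinc-dependent enzymes that cut collagens and other proteins of the extracellular matrix. Most are secreted as inactive proenzymes that other proteases cut to activate them, while MMP14 is anchored in the cell membrane and activates MMP2 with the help of TIMP2. TIMP proteins bind the active site and block it. In fibroblasts several metalloproteinase genes respond to growth factors and RAS signaling through AP-1 sites, which bind FOS and JUN proteins, and through sites for ETS factors. A level of mRNA says nothing of how much active enzyme was present.

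Raw counts summed to between 73222911 and 92179519 per library, and the 10 genes together took 0.265% to 0.369% of them. Levels are in CPM, a gene's count relative to the TMM-scaled total of its library, and are listed in the order of replicates 1, 2 and 3. Per-kilobase levels (RPKM) are used only where genes are set beside each other. All 12 libraries were fitted together with edgeR's quasi-likelihood test for 15759 genes, all 10 members among them, and a gene was called where its Benjamini-Hochberg adjusted p was under 0.05. Fold changes are on the log2 scale with their standard error (SE). Cultures of 1 genotype varied by 15.7% of the level of a typical gene. Nras was read at 88.1 to 125.8 CPM, although gene counts cannot tell the codon 61 alleles apart. Fibroblast markers were present in every library, with Col1a1 at 4118 CPM or more, Thy1 at 276 CPM or more and Pdgfrb at 139.8 CPM or more. The summed level of 10 fibroblast markers, which collagens dominate, was 11022 to 21395 CPM in 61R/R, 10609 to 12519 CPM in 61H/H, 18425 to 23560 CPM in 61P/P and 25991 to 37283 CPM in 61Q/Q. Of these 10 markers, 2 were higher and 4 lower in 61R/R than in 61Q/Q, 2 higher and 5 lower in 61H/H, and 1 higher and 1 lower in 61P/P, with median log2 differences of 0.00, −0.33 and −0.02. S100a4 was higher in all 3 mutant genotypes and Pdgfra in 61R/R and 61H/H, while Col1a1, Col1a2, Col3a1 and Pdgfrb were lower in 61R/R and 61H/H. In bulk RNA, fewer cells of a kind and less RNA per cell cannot be told apart. Markers of macrophages were also found, at 124 to 323 CPM summed over 12 genes. The 12 markers included Csf1r and Adgre1, and none of them was at 0 in any library.

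Mmp13, Mmp3 and Mmp10 lie on chromosome 9 within a cluster of 10 metalloproteinase genes that spans 427 kb, from 7272514 to 7699416 in mm10. The sequences upstream of these 3 genes and of Mmp14 are shown because the first 3 are the genes that separated 61R/R and 61H/H from 61P/P, while Mmp14 differed from 61Q/Q in all mutant genotypes. Each line gives the 250 bases before the RefSeq start of the gene (build GRCm38.p6, plus strand). Capitals mark AP-1 sites (TGANTCA), ETS sites of the PEA3 type (AGGAAG) and the TATA box (TATAAA), each searched on both strands. The coordinates are chr9:7272264-7272513 for Mmp13, chr9:7445572-7445821 for Mmp3, chr9:7502092-7502341 for Mmp10 and chr14:54431348-54431597 for Mmp14.
Mmp13: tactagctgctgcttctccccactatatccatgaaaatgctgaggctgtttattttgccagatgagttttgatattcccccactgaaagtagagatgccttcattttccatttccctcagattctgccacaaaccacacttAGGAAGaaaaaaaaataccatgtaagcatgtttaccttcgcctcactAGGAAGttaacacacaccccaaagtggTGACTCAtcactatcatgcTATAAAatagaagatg
Mmp3: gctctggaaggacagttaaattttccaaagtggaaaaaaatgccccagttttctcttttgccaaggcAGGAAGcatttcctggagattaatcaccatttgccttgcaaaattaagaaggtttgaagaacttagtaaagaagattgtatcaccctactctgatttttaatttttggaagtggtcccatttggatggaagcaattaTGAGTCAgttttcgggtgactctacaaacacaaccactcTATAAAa
Mmp10: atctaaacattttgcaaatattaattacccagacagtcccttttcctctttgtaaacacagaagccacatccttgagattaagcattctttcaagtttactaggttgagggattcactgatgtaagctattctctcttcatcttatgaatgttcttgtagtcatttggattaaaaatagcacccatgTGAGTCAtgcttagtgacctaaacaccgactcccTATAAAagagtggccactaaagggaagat
Mmp14: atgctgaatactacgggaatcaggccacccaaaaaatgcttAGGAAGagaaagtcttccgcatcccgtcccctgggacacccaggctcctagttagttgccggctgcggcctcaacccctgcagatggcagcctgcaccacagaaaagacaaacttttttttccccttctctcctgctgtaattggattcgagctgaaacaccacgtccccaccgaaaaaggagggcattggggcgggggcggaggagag

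Mmp13, Mmp3 and Mmp10 each held 1 AP-1 site and 1 TATA box downstream of it on the strand of the gene. The AP-1 letters read the same on both strands. The AP-1 site began 35 bases before the start in Mmp13, 46 bases before it in Mmp3 and 63 bases before it in Mmp10. Mmp13 also held 2 PEA3 sites, at 109 and 62 bases before the start, and Mmp3 held 1 at 183 bases. The RefSeq table matched 8 of the 10 members, and in its windows of 300 bases, 250 before and 50 after the start, the AP-1 letters were found in 3 of these 8. Mmp14, Mmp11, Timp1, Timp2 and Timp3 had neither an AP-1 site nor a TATA box in that window, while Mmp14 and Timp3 had 1 PEA3 site each and Timp1 had 3. Among all 32851 windows of this length, 7.81% held the AP-1 letters, 35.4% the PEA3 letters, 13.6% the TATA letters and 1.54% both AP-1 and TATA letters. These matches describe letters in a window and do not show that a factor was bound.

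Mmp3, stromelysin 1, which cuts many matrix proteins and activates other proenzymes, had the largest log2 difference from 61Q/Q among the members. Its level was 58.1, 155 and 169 CPM in 61R/R, 114, 139 and 97.5 CPM in 61H/H, 25.6, 20.8 and 18.6 CPM in 61P/P and 11.6, 31.7 and 11.2 CPM in 61Q/Q. Every 61R/R and 61H/H culture was above every 61P/P and 61Q/Q culture. Replicate 1 was the low culture of 61R/R and replicate 2 the high culture of 61Q/Q. Relative to 61Q/Q, Mmp3 was higher by 2.81 in 61R/R (SE 0.46, edgeR adjusted p = 0.0194), a 7.02-fold change, and by 2.68 in 61H/H (SE 0.45, edgeR adjusted p = 0.0043), a 6.42-fold change. In 61P/P the difference from 61Q/Q was 0.25, with a 95% interval from −0.70 to 1.2, and it was not called (edgeR adjusted p = 0.755). Relative to 61P/P, Mmp3 was higher by 2.56 in 61R/R (edgeR adjusted p = 0.0219) and by 2.43 in 61H/H (edgeR adjusted p = 0.0329). The call in 61H/H relative to 61Q/Q was kept whichever of the 12 libraries was left out (adjusted p of at most 0.0241). The call in 61R/R was lost without 61R/R replicate 2 or 3 or 61Q/Q replicate 1 or 3 (edgeR adjusted p = 0.0986, 0.0947, 0.0814 and 0.0894, with log2 differences of 2.65, 2.55, 2.57 and 2.56). Without 61R/R replicate 1 or 61Q/Q replicate 2, 6 of the 10 members were called in 61R/R relative to 61Q/Q. The share of all genes called in those fits is not given here.

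Mmp10, stromelysin 2, a close relative of Mmp3 in the same cluster, was low in 61P/P. It was read at 8.66, 11.3 and 15.2 CPM in 61R/R, 4.77, 10.8 and 7.07 CPM in 61H/H, 0.465, 1.72 and 1.78 CPM in 61P/P and 2.62, 7.23 and 3.49 CPM in 61Q/Q. The lowest count was 38, in 61P/P replicate 1. All 61P/P cultures were below all others, and 61H/H overlapped with 61Q/Q. Mmp10 was higher in 61R/R than in 61P/P by 3.14 (SE 0.52, edgeR adjusted p = 0.0218), an 8.84-fold change, and higher in 61H/H than in 61P/P by 2.51 (SE 0.52, edgeR adjusted p = 0.0381), a 5.70-fold change. No comparison with 61Q/Q was called. The values were 1.39 for 61R/R (edgeR adjusted p = 0.0619), 0.76 for 61H/H (0.247) and −1.75 for 61P/P (0.0606). Order of the mean levels was 61R/R, 61H/H, 61Q/Q and 61P/P, and no neighboring pair in that order was called.

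Mmp13, collagenase 3, which cuts fibrillar collagen, was lower in 61P/P than in each other genotype. Its level was 8.10, 13.3 and 13.6 CPM in 61R/R, 9.76, 10.5 and 9.24 CPM in 61H/H, 3.28, 4.33 and 3.55 CPM in 61P/P and 10.7, 8.47 and 10.5 CPM in 61Q/Q. The highest 61P/P culture was at 4.33 CPM and the lowest of all other cultures at 8.10 CPM. Mmp13 fell by 1.41 in 61P/P relative to 61Q/Q (SE 0.19, edgeR adjusted p = 0.0122), a 2.66-fold change. It was 1.65 higher in 61R/R than in 61P/P (SE 0.19, edgeR adjusted p = 0.0132) and 1.40 higher in 61H/H than in 61P/P (SE 0.19, edgeR adjusted p = 0.0155). Relative to 61Q/Q the differences were 0.24 in 61R/R cells (95% interval −0.16 to 0.64) and −0.01 in 61H/H (95% interval −0.41 to 0.39), and neither was called. The lower level in 61P/P relative to 61Q/Q was not called without 61P/P replicate 2 (edgeR adjusted p = 0.0503) or 61Q/Q replicate 3 (0.0747), with log2 differences of −1.53 and −1.37.

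**Figure D1:**
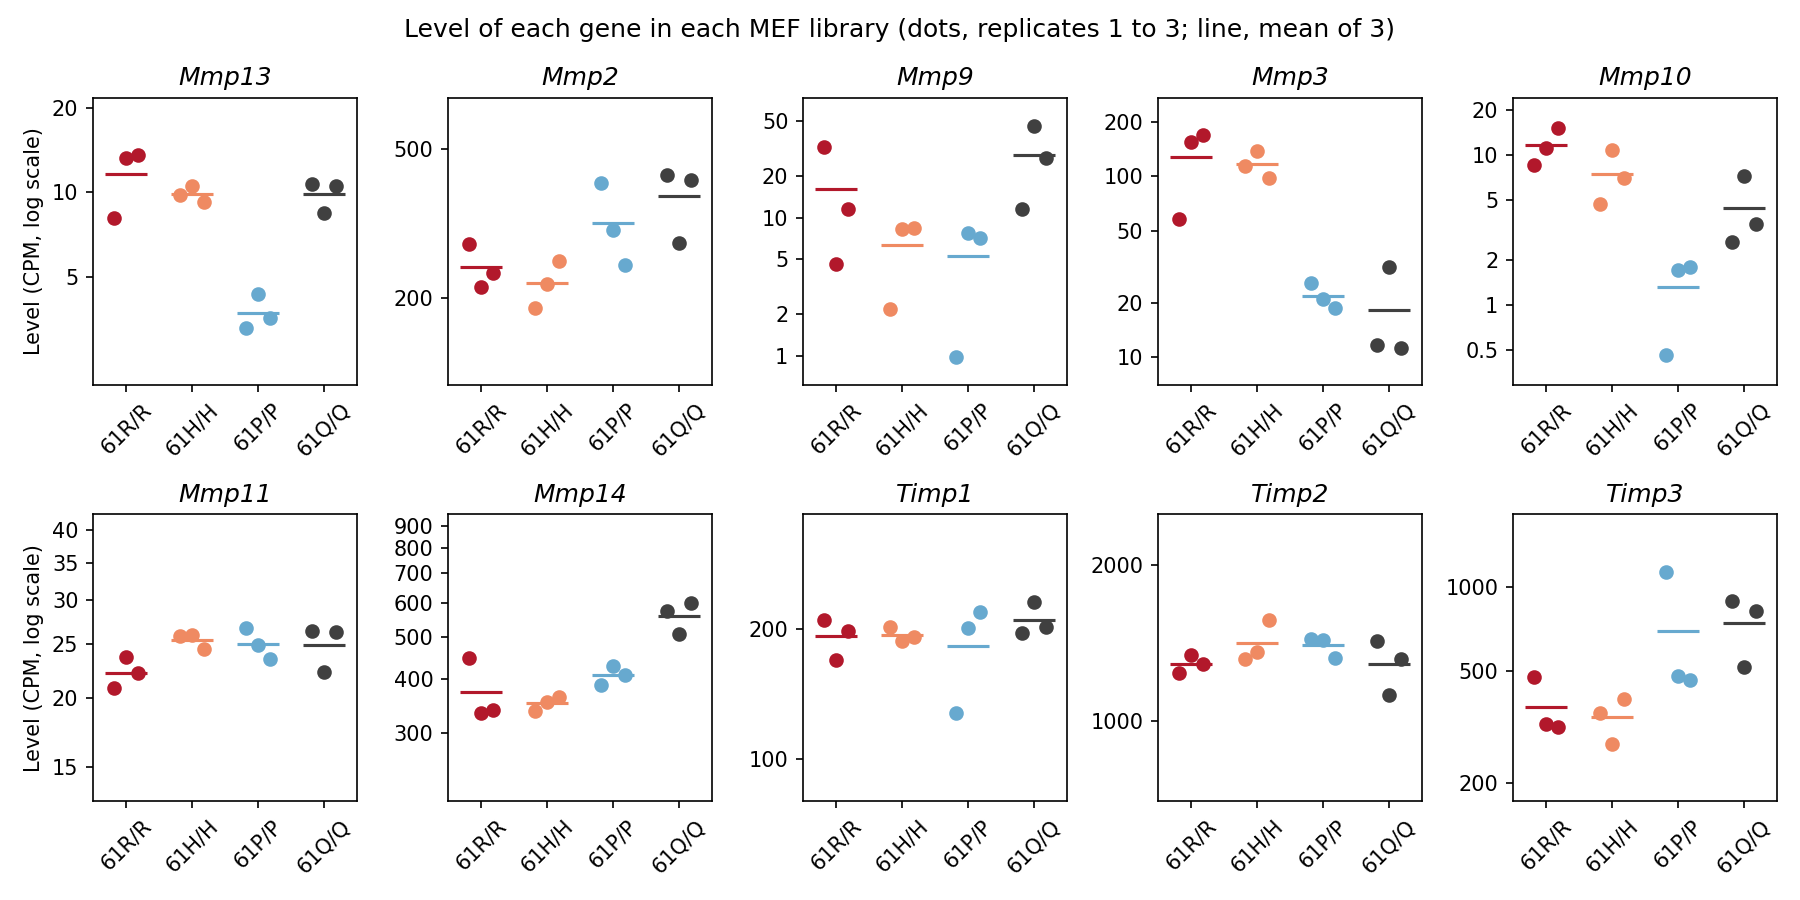
Level of each of the 10 genes (CPM, log axis, a separate scale per gene) in 3 cultures each of 61R/R, 61H/H and 61P/P and of 61Q/Q; dots are libraries, replicates 1 to 3 from left to right, and the line is their mean. Mmp3 sits between 58.1 and 169 CPM in the 61R/R and 61H/H cultures and between 11.2 and 31.7 CPM in the 61P/P and 61Q/Q cultures, while Mmp13 and Mmp10 are lowest in 61P/P.

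The 2 gelatinase genes encode enzymes that cut denatured collagen and the collagen of basement membranes. Mmp2 was read at 279, 215 and 234 CPM in 61R/R, 188, 219 and 252 CPM in 61H/H, 406, 304 and 246 CPM in 61P/P and 427, 281 and 412 CPM in 61Q/Q. It fell by 0.77 in 61H/H relative to 61Q/Q (SE 0.20, edgeR adjusted p = 0.0179), a 1.70-fold change, and no 61H/H culture overlapped with 61Q/Q. The value for 61R/R, −0.62 (SE 0.20), just missed the threshold (edgeR adjusted p = 0.0504), and that for 61P/P was −0.23 (edgeR adjusted p = 0.498). The call in 61H/H was lost without 61H/H replicate 1 or 2 or 61Q/Q replicate 1 or 3 (edgeR adjusted p = 0.0724, 0.0548, 0.0707 and 0.0705). No comparison of Mmp2 with 61P/P was called.

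Mmp9 varied more between cultures of a genotype than any other member. Its level was 32.4, 4.59 and 11.6 CPM in 61R/R, 2.21, 8.32 and 8.39 CPM in 61H/H, 0.991, 7.74 and 7.14 CPM in 61P/P and 11.6, 45.7 and 27.0 CPM in 61Q/Q. Every 61H/H and 61P/P culture was below every 61Q/Q culture, while 61R/R overlapped with all 3 other genotypes. The differences from 61Q/Q were −0.80 (SE 0.81) in 61R/R, −2.15 (SE 0.84) in 61H/H cells and −2.41 (SE 0.86) in 61P/P, and none was called (edgeR adjusted p = 0.508, 0.0765 and 0.10). The value in 61R/R was −1.80 when 61R/R replicate 1 was left out, −0.36 when 61R/R replicate 2 was and −0.26 when 61Q/Q replicate 2 was, and the difference in 61H/H was called without 61P/P replicate 1 (edgeR adjusted p = 0.0415). Macrophages also express Mmp9, and the summed level of the 12 macrophage markers was 142 to 257 CPM in 61R/R, 127 to 191 CPM in 61H/H, 124 to 323 CPM in 61P/P and 223 to 322 CPM in 61Q/Q. Of these 12 markers, 2, 5 and 2 were lower than in 61Q/Q in the mutants 61R/R, 61H/H and 61P/P, and none was higher. Within 61H/H the libraries had the same order by Mmp9 and by these markers (127, 185 and 191 CPM in replicates 1, 2 and 3). In 61R/R, replicate 2 was lowest by both, while the order of the whole genotype differed. In 61P/P and 61Q/Q the orders also differed. The culture with the highest marker sum, 61P/P replicate 1 at 323 CPM, had the lowest Mmp9 level, 0.991 CPM, and 61Q/Q replicate 2, with the highest Mmp9 level, had the lowest marker sum of 61Q/Q, 223 CPM. Mmp12, macrophage metalloelastase, was highest in 61P/P replicate 1, at 7.23 CPM against 1.02 and 1.21 CPM in replicates 2 and 3 of 61P/P. The part of macrophage RNA in these levels was not tested.

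**Figure D2:**
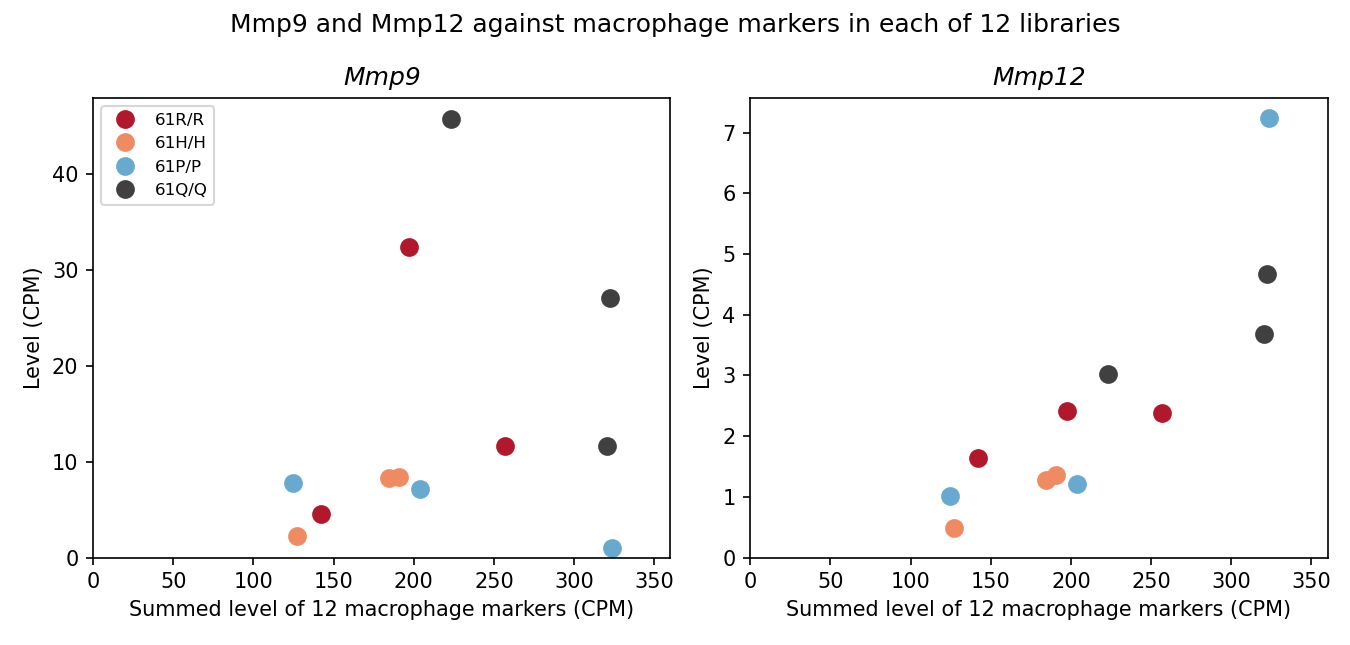
Level of Mmp9 (left) and Mmp12 (right) in CPM against the summed level of 12 macrophage markers in CPM, with 1 dot per library and a color per genotype. Mmp12 is highest, 7.23 CPM, in the 61P/P library with the highest marker sum, in which Mmp9 is lowest, 0.991 CPM.

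Mmp14, the membrane-type enzyme, was lower in all 3 mutant genotypes than in 61Q/Q. Its level was 447, 335 and 340 CPM in 61R/R, 337, 354 and 363 CPM in 61H/H, 387, 428 and 408 CPM in 61P/P and 574, 507 and 599 CPM in 61Q/Q. None of the 9 mutant cultures reached the lowest 61Q/Q culture. Mmp14 fell by 0.58 in 61R/R (SE 0.11, edgeR adjusted p = 0.0194), by 0.67 in 61H/H (SE 0.11, edgeR adjusted p = 0.0043) and by 0.46 in 61P/P (SE 0.11, edgeR adjusted p = 0.0318). These are changes of 1.37-fold to 1.59-fold, and the 3 comparisons share the 61Q/Q libraries. The call in 61H/H was kept whichever library was left out. The call in 61R/R was lost without the same 4 libraries and at the same adjusted p as that of Mmp3. The log2 differences in those fits were −0.51 and −0.52 without 61R/R replicates 2 and 3, and −0.57 and −0.53 without 61Q/Q replicates 1 and 3. In the fit of all 12 libraries, the edgeR adjusted p of 0.0194 that both genes had in 61R/R was the lowest of all genes tested. The call in 61P/P was lost without any 61P/P library, without 61H/H replicate 2 and without 61Q/Q replicate 1 or 3 (edgeR adjusted p = 0.0524 to 0.137). Differences between mutant genotypes were −0.13 for 61R/R relative to 61P/P, −0.21 for 61H/H relative to 61P/P and 0.09 for 61R/R relative to 61H/H, and none was called.

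Mmp11, stromelysin 3, which is activated inside the cell by furin, differed by no more than 0.20 on the log2 scale in any of the 6 comparisons. It was read at 20.8 to 23.6 CPM in 61R/R, 24.4 to 26.0 CPM in 61H/H, 23.4 to 26.7 CPM in 61P/P and 22.2 to 26.3 CPM in 61Q/Q. Its differences from 61Q/Q were −0.17 in 61R/R, 0.03 in 61H/H cells and 0.01 in 61P/P, with 95% intervals that lay between −0.35 and 0.21.

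Timp2 and Timp1 were the most abundant members per length, and Timp3 ranked below Mmp14. Timp2, the partner of MMP14 in the activation of MMP2, had 1237, 1337 and 1285 CPM in 61R/R, 1317, 1355 and 1562 CPM in 61H/H, 1438, 1432 and 1323 CPM in 61P/P and 1424, 1122 and 1314 CPM in 61Q/Q. Groups overlapped, differences from 61Q/Q were −0.00, 0.13 and 0.12 in the mutants 61R/R, 61H/H and 61P/P, and their 95% intervals lay between −0.20 and 0.34. Timp1, a secreted inhibitor known as a target of growth factor signaling, had 210, 169 and 197 CPM in 61R/R, 202, 188 and 192 CPM in 61H/H, 128, 201 and 219 CPM in 61P/P and 196, 230 and 202 CPM in 61Q/Q. Its differences from 61Q/Q were −0.12, −0.11 and −0.20 in the same order of genotypes, with 95% intervals between −0.55 and 0.25. Neither gene was called in any of the 6 comparisons.

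Timp3, the inhibitor that is held in the extracellular matrix, was read at 476, 323 and 315 CPM in 61R/R, 354, 275 and 398 CPM in 61H/H, 1133, 480 and 466 CPM in 61P/P and 889, 519 and 821 CPM in 61Q/Q. Each 61R/R and 61H/H culture was below each 61Q/Q culture, and 61P/P held both the highest culture of all and 2 near the 61R/R range. Timp3 fell by 1.12 in 61H/H relative to 61Q/Q (SE 0.34, edgeR adjusted p = 0.0305). The value in 61R/R was −1.0 (SE 0.34, edgeR adjusted p = 0.0579) and in 61P/P −0.10 (SE 0.33, edgeR adjusted p = 0.879). Relative to 61P/P it was −0.90 in 61R/R cells (edgeR adjusted p = 0.144) and −1.02 in 61H/H (0.0998), neither called. Without 61P/P replicate 1 these values were −0.35 in 61R/R and −0.47 in 61H/H. The call in 61H/H was lost without any 61H/H library or 61Q/Q replicate 1 or 3 (edgeR adjusted p = 0.0519 to 0.103). Timp3 lies inside Syn3 and Timp1 inside Syn1, without overlap of exons.

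**Figure D3:**
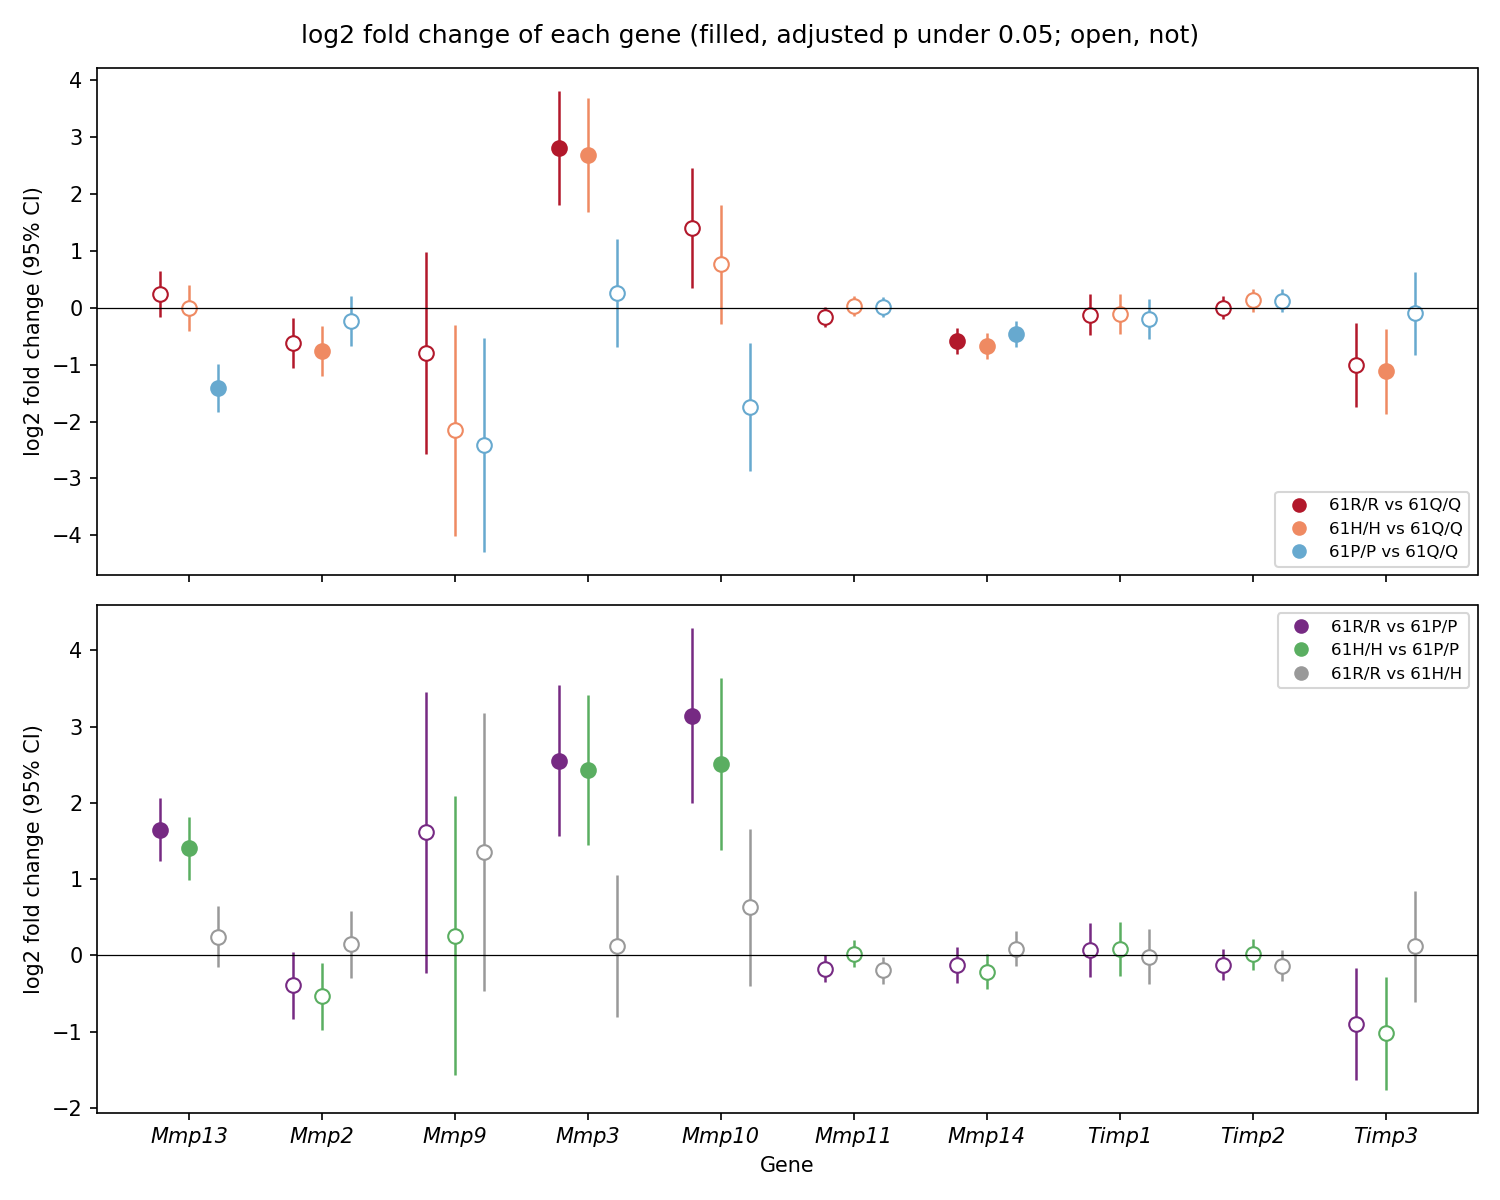
Log2 fold change of each gene with its 95% interval, relative to 61Q/Q (upper panel) and among 61R/R, 61H/H and 61P/P (lower panel); filled dots passed an edgeR adjusted p under 0.05 and open dots did not. Mmp3 is filled at 2.81 and 2.68 in 61R/R and 61H/H relative to 61Q/Q, Mmp14 is filled in all 3 mutant genotypes, and the intervals of Mmp9 are the widest.

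Counts of members called are set beside the share of all 15759 genes called in the same direction. In 61R/R relative to 61Q/Q, 1 member was higher (Mmp3) and 1 lower (Mmp14), where 9.43% and 9.59% of all genes were. Without 61R/R replicate 1 or 61Q/Q replicate 2 the number called was 6 of 10, without 61P/P replicate 1 it was 5, and without 61R/R replicate 2 or 3 or 61Q/Q replicate 1 or 3 it was 0. The shares of all genes given here are those of the fit of all 12 libraries and do not apply to these leave-outs. In 61H/H relative to 61Q/Q, 1 was higher (Mmp3) and 3 lower (Mmp2, Mmp14 and Timp3), where 13.8% and 14.5% of all genes were. In 61P/P relative to 61Q/Q, 0 were higher and 2 lower (Mmp13 and Mmp14), where 3.15% and 3.69% of all genes were. These counts over 10 genes chosen as a family are given as a description.

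Some differences that did not pass in the main fit of 12 libraries passed when a library was left out. Relative to 61Q/Q in 61R/R, Mmp2, Mmp10 and Timp3 were called without 61R/R replicate 1, 61P/P replicate 1 or 61Q/Q replicate 2, Mmp2 also without 61P/P replicate 3, Mmp13 without 61R/R replicate 1 and Mmp11 without 61Q/Q replicate 2 (edgeR adjusted p = 0.0127 to 0.0484). Mmp14 was called in 61R/R relative to 61P/P without 61R/R replicate 1 (log2 difference −0.27, edgeR adjusted p = 0.0472).

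Mmp3, Mmp10 and Mmp13 were the members called between mutant genotypes. In 61R/R relative to 61P/P these 3 were higher and 0 members were lower, where 1.85% and 1.6% of all genes were. In 61H/H relative to 61P/P the calls were the same 3 higher and 0 lower, where 1.47% and 1.02% of all genes were. Both comparisons use the 61P/P libraries. Median log2 fold changes of the 10 members were −0.02 and 0.05, against 0.00 and −0.01 for all genes. Markers of other cell types also differed among these cultures. The summed level of 5 mesothelial markers was 28.8 to 52.8 CPM in 61R/R, 41.5 to 82.4 CPM in 61H/H, 14.4 to 39.1 CPM in 61P/P and 11.97 to 19.5 CPM in 61Q/Q. Of these 5, 1, 2 and 0 were higher than in 61Q/Q in the mutants 61R/R, 61H/H and 61P/P, none was called relative to 61P/P, and none was at 0 in any library. The summed level of 6 epithelial markers was 5.13 to 9.53 CPM in 61R/R, 5.69 to 7.98 CPM in 61H/H, 2.08 to 3.28 CPM in 61P/P and 4.3 to 5.26 CPM in 61Q/Q. Relative to 61P/P, 1 of the 5 epithelial markers tested, Krt18, was higher in both 61R/R and 61H/H, and Krt5 and Krt14 were at 0 in some libraries. For 9 chondrocyte and osteoblast markers the sum was 49.1 to 69.2 CPM in 61R/R and 32.4 to 57.2 CPM in 61H/H. It was 91.0 to 261 CPM in 61P/P and 67.3 to 260 CPM in 61Q/Q. For 6 osteoclast markers it was 33.3 to 44.2 CPM in 61R/R and 26.9 to 37.2 CPM in 61H/H. In 61P/P it was 21.7 to 30.8 CPM and in 61Q/Q 49.7 to 69.3 CPM. In these 2 lists, 4 of 9 and 3 of 6 markers were tested, and none was called relative to 61P/P. Much of the first sum was Col2a1 (21.3 to 206 CPM) and Col10a1 (7.59 to 118 CPM), and most of the second was Ctsk (19.6 to 67.7 CPM). Col9a1, Matn1, Ibsp, Bglap, Alpl, Calcr, Ocstamp and Dcstamp were at 0 in some libraries. Whether cells of these types were present, and their part in the levels of Mmp3, Mmp10 and Mmp13, was not tested.

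These calls depended on which libraries were in the fit, while the log2 differences stayed positive. Over the fits without 1 library, values relative to 61P/P in 61R/R were 2.30 to 2.90 for Mmp3, 2.74 to 3.43 for Mmp10 and 1.53 to 1.85 for Mmp13. In 61H/H they were 2.29 to 2.57, 2.10 to 2.80 and 1.32 to 1.53 in the same order of genes. In 61R/R relative to 61P/P all 3 calls were lost without 61R/R replicate 2 or 3 or 61P/P replicate 2, and that of Mmp3 also without 61P/P replicate 1 (edgeR adjusted p = 0.0575 to 0.115). In 61H/H relative to 61P/P all 3 were lost without 61H/H replicate 2 or 61P/P replicate 2, those of Mmp3 and Mmp10 also without 61H/H replicate 1 or 3 or 61P/P replicate 1, and that of Mmp10 also without 61R/R replicate 3 or 61Q/Q replicate 3 (edgeR adjusted p = 0.0526 to 0.162).

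Between 61R/R and 61H/H, 0 members were higher and 0 lower, where 0% and 0% of all genes were. At an unadjusted p under 0.05 by edgeR there were 778 of 15759 genes, with 1 member, Mmp11 (log2 difference −0.20, edgeR adjusted p = 0.992), and DESeq2 called 0 of the members and 25 of all genes. Intervals were narrow for Timp2 (−0.34 to 0.07) and Mmp14 (−0.14 to 0.32) and wide for Mmp9 (−0.46 to 3.18) and Mmp10 (−0.40 to 1.66), so the lack of a call does not show that the levels of the last pair were alike.

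Per length, the mean level over 12 libraries was 371 RPKM for Timp2, 219 RPKM for Timp1, 163 RPKM for Mmp14, 115 RPKM for Timp3 and 94.9 RPKM for Mmp2. Mmp3 had 39.5 RPKM, Mmp11 10.7 RPKM, Mmp9 4.40 RPKM, Mmp10 3.61 RPKM and Mmp13 3.28 RPKM. By genotype, Mmp3 had 70.9 RPKM in 61R/R, 64.9 RPKM in 61H/H, 12.1 RPKM in 61P/P and 10.1 RPKM in 61Q/Q. In 61P/P and 61Q/Q it was near Mmp11 (10.9 RPKM in each), and in 61R/R and 61H/H it was near Mmp2 (79.8 and 72.2 RPKM). The summed RPKM of the 7 metalloproteinase genes was 47.7%, 49.2% and 51.1% of that of the 3 inhibitor genes in 61R/R, 41.1%, 48.1% and 40.7% of it in 61H/H, 39.7%, 40.3% and 37.0% of it in 61P/P and 48.4%, 49.6% and 52.1% in 61Q/Q. The 61P/P cultures were lowest in this ratio, and 61R/R overlapped with 61Q/Q.

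The remaining metalloproteinase genes numbered 16, of which 11 were tested. Relative to 61Q/Q, 2 were higher and 2 lower in 61R/R, 1 higher and 3 lower in 61H/H, and 0 higher and 1 lower in 61P/P, with medians of −0.30, −0.18 and −0.00. Mmp1a and Mmp1b, paralogous interstitial collagenase genes, lie on either side of Mmp3, and how reads shared by such genes were counted is not given in the sources used here. Mmp1a had 78, 231 and 150 counts in 61R/R, 6, 108 and 99 counts in 61H/H, 0, 6 and 12 counts in 61P/P and 0, 26 and 2 in 61Q/Q. Mmp1b had 34, 88 and 76 counts in 61R/R, 53, 96 and 68 counts in 61H/H, 8, 16 and 20 counts in 61P/P and 10, 30 and 16 in 61Q/Q. Both were near the lower end of what was tested, yet every 61R/R culture was above every 61P/P and 61Q/Q culture for each. Relative to 61Q/Q, Mmp1a was higher by 3.86 in 61R/R (edgeR adjusted p = 0.0378) and Mmp1b by 1.65 in 61R/R cells (0.0328) and 1.77 in 61H/H (0.0168). Without 61Q/Q replicate 2, which holds most 61Q/Q counts of Mmp1a, its difference in 61R/R was 6.88, and the call was lost without any of 7 other libraries (edgeR adjusted p = 0.0531 to 0.139). The calls of Mmp1b were lost without 61R/R replicate 2 or 3 or 61Q/Q replicate 1 or 3 in 61R/R (0.115 to 0.135), and without 61H/H replicate 2 or 61Q/Q replicate 1 or 3 in 61H/H (0.0631 to 0.0696). Mmp1b was also higher than in 61P/P, by 2.02 in 61R/R cells (edgeR adjusted p = 0.0419) and 2.14 in 61H/H (0.0442), calls that were lost without any of 8 and any of 9 libraries.

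Mmp17, a membrane-type enzyme anchored by a lipid, had 8.95, 3.30 and 4.76 CPM in 61R/R, 2.57, 3.41 and 4.27 CPM in 61H/H, 6.86, 5.43 and 6.68 CPM in 61P/P and 18.4, 10.7 and 18.2 CPM in 61Q/Q. As for Mmp14, all 9 mutant cultures were below all 61Q/Q cultures. It fell by 1.48 in 61R/R (edgeR adjusted p = 0.0208), 2.20 in 61H/H cells (0.0043) and 1.32 in 61P/P (0.0418). The call in 61H/H was kept without any single library, that in 61R/R was lost without the same 4 libraries as that of Mmp3 (0.084 to 0.0988), and that in 61P/P was lost without any of 8 libraries, namely all 3 of 61P/P, 61H/H replicates 2 and 3, 61R/R replicate 3 and 61Q/Q replicates 1 and 3 (0.0546 to 0.154). Mmp16, another membrane-type enzyme, fell by 0.57 in 61H/H (edgeR adjusted p = 0.0243), and Mmp25, at a mean of 0.263 CPM in 61Q/Q, fell by 1.34 in 61R/R cells and 1.26 in 61H/H (edgeR adjusted p = 0.0354 and 0.0295). Mmp12, Mmp15, Mmp19, Mmp23 and Mmp28 were not called in any comparison, and Mmp7 and Mmp20 had 0 counts in every library.

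Of the 10 genes of the chromosome 9 cluster, 6 were tested, and all 6 had an AP-1 site in at least 1 RefSeq window. Mmp7 and Mmp20, which had no counts in any library, also had an AP-1 site in a window, and the untested Mmp8 and Mmp27 did not. Along the cluster, the log2 differences of 61R/R from 61Q/Q were 0.24 for Mmp13, −0.82 for Mmp12, 1.65 for Mmp1b, 2.81 for Mmp3, 3.86 for Mmp1a and 1.39 for Mmp10. Of the 8 tested genes within 500 kb on either side, Tmem123 was lower by 0.39 in 61R/R (edgeR adjusted p = 0.0221) and by 0.41 in 61H/H (0.0104), and Cep126 was called in 61P/P (−0.40). Values of the other 6 in the 3 mutant genotypes lay between −0.20 and 0.25. The stretch of genes for this comparison was chosen after the values were seen.

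**Figure D4:**
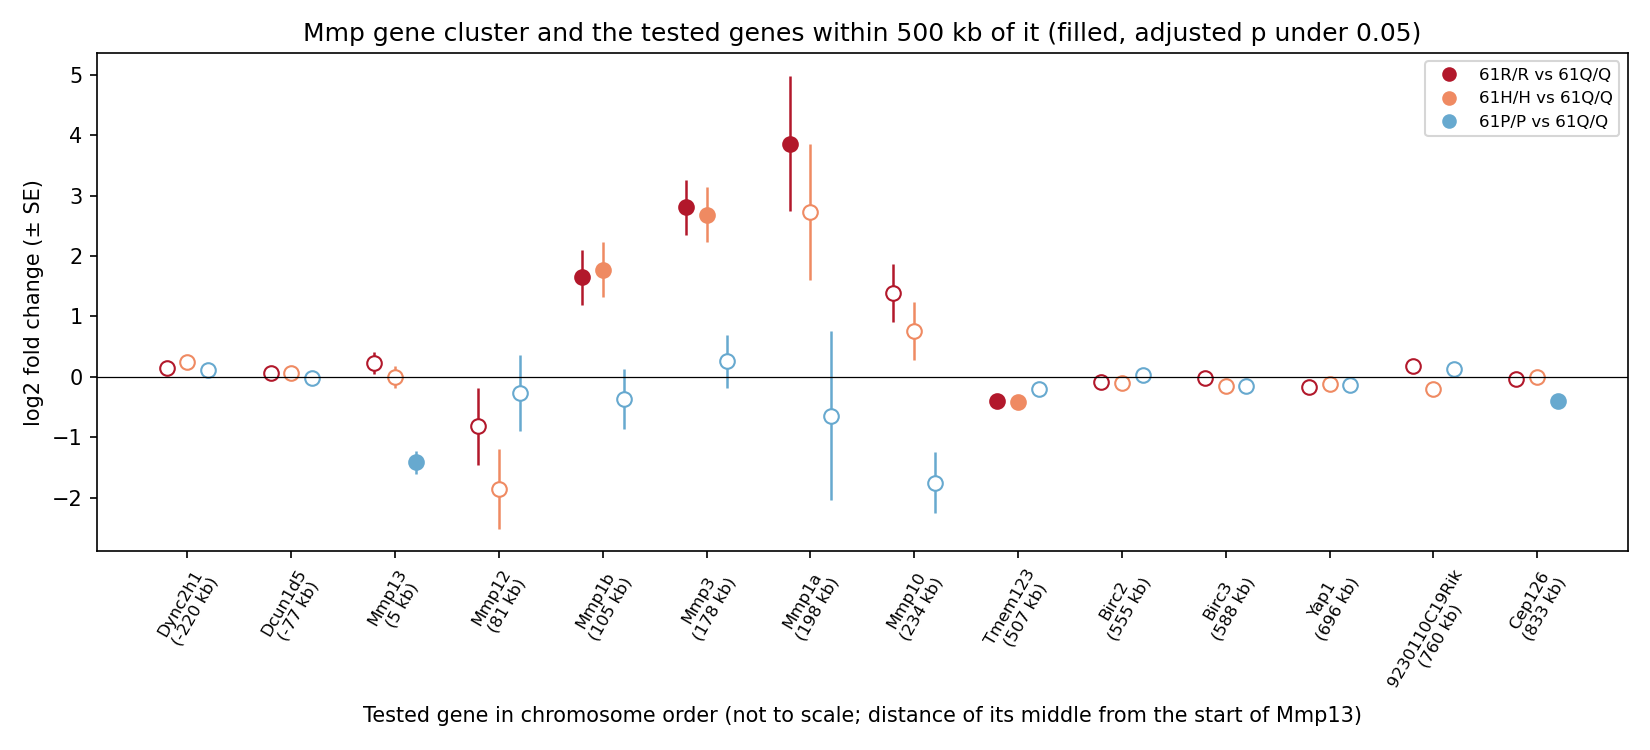
Log2 fold change (± SE) relative to 61Q/Q of the 14 tested genes in and around the metalloproteinase cluster, in chromosome order, with the distance of each gene's middle from the start of Mmp13. Mmp1b, Mmp3 and Mmp1a carry filled dots (edgeR adjusted p under 0.05) in 61R/R at 1.65, 2.81 and 3.86, and the genes on either side stay within 0.41 of 0.

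Other genes of the system were counted from lists, which were chosen with earlier results of these data known. Relative to 61Q/Q, 9.43%, 13.8% and 3.15% of all genes were higher in the mutants 61R/R, 61H/H and 61P/P, and 9.59%, 14.5% and 3.69% were lower. Of 15 tested genes for activation and surface docking of metalloproteinases, 1 was higher and 4 lower in 61R/R than in 61Q/Q, 1 higher and 7 lower in 61H/H, and 0 higher and 2 lower in 61P/P, with medians of −0.19, −0.31 and −0.22. The one that was higher in 61R/R and 61H/H was Plau, urokinase, which starts the plasmin cascade that activates several proenzymes, by 1.07 (edgeR adjusted p = 0.0194) and 0.92 (0.00884). Plau was also higher than in 61P/P, by 1.28 in 61R/R cells (edgeR adjusted p = 0.02) and 1.13 in 61H/H (0.0312). Pcsk5, a proprotein convertase, fell by 1.31, 1.94 and 1.5 in the mutants 61R/R, 61H/H and 61P/P (edgeR adjusted p = 0.0273, 0.00471 and 0.0309).

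Of 13 AP-1, ETS and RUNX factor genes, 5 were higher and 2 lower in 61R/R than in 61Q/Q, 5 higher and 4 lower in 61H/H, and 1 higher and 2 lower in 61P/P, with medians of −0.02, 0.10 and −0.02. Etv5, an ETS factor of the PEA3 group, was higher by 0.79, 0.80 and 0.56 in the mutants 61R/R, 61H/H and 61P/P (edgeR adjusted p = 0.0194, 0.0043 and 0.0312). Runx2 fell by 0.26 in 61R/R cells and 0.39 in 61H/H (edgeR adjusted p = 0.0407 and 0.00618). Runx1 and Ets1 fell in 61P/P by 0.88 and 0.65 (edgeR adjusted p = 0.0241 and 0.0251). The level of Ets1 was 126, 95.3 and 103 CPM in 61R/R and 86.5, 102 and 97.9 CPM in 61H/H, against 121, 136 and 120 CPM in 61Q/Q. The AP-1 genes that passed, named after their values were seen, were Fosb, Fosl1 and Jun, higher by 1.24, 1.06 and 0.82 in 61R/R and by 1.30, 0.86 and 0.74 in 61H/H, with edgeR adjusted p of 0.00878 to 0.0238, and Junb, lower by 0.38 in 61R/R and by 0.39 in 61H/H (edgeR adjusted p = 0.0238 and 0.0122). Fosb was also higher than in 61P/P, by 1.2 in 61R/R cells and 1.26 in 61H/H (edgeR adjusted p = 0.043 and 0.0463).

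Genes for the matrix that these enzymes cut were lower wherever they passed the test. Of all genes, 9.59%, 14.5% and 3.69% were lower in the mutants 61R/R, 61H/H and 61P/P. Of 11 fibrillar collagen genes, 6 passed as lower than in 61Q/Q in 61R/R cells, 9 in 61H/H cells and 0 in 61P/P cells, with none higher, and medians of −1.04, −1.37 and −0.68. Col1a1 fell by 1.33 in 61R/R cells (edgeR adjusted p = 0.0218) and 1.91 in 61H/H (0.0043). Of 17 other substrates, 11, 12 and 6 were lower in the mutants 61R/R, 61H/H and 61P/P and none was higher, with medians of −0.72, −0.96 and −0.40. Fn1, fibronectin, fell by 1.12 in 61R/R cells and 1.33 in 61H/H (edgeR adjusted p = 0.0198 and 0.00486), and Tnc, tenascin C, fell by 0.91, 1.59 and 1.37 in the mutants 61R/R, 61H/H and 61P/P (edgeR adjusted p = 0.0333, 0.0043 and 0.0229).

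Related proteases and inhibitors were counted in the same way. Of 17 tested ADAMTS genes, secreted proteases of procollagen and proteoglycans, 4, 9 and 2 were lower in the mutants 61R/R, 61H/H and 61P/P than in 61Q/Q and none was higher, with medians of −0.74, −0.79 and −0.35. Adamts12 fell by 1.57 in 61R/R cells and 2.21 in 61H/H (edgeR adjusted p = 0.0202 and 0.0043). Of 10 ADAM genes, membrane proteases and their relatives, 2 were higher in 61R/R cells and 61H/H (Adam17 and Adam22), 2 were lower in 61H/H and 1 was lower in 61P/P, with medians of −0.12, −0.17 and −0.19. A list of other possible inhibitor genes held 6 that were tested, with medians of −0.29, −0.34 and 0.05 in the same order of genotypes. Of these 6, 2 were lower in both 61R/R and 61H/H cells and 0 in 61P/P. Spock1 fell by 2.13 and 2.52 (edgeR adjusted p = 0.0246 and 0.00853). Pcolce fell by 0.32 and 0.27 (edgeR adjusted p = 0.0298 and 0.0344). Pcolce is named as an enhancer of procollagen C-endopeptidase, so its fall is not read here as loss of an inhibitor. Marker genes of smooth muscle, which include contractile fibroblast genes such as Acta2, moved in the same direction, with 5, 5 and 1 of 6 lower in the mutants 61R/R, 61H/H and 61P/P, and their part in these results was not tested.

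For each member, the gene with the most similar pattern was found by Pearson's r of log2 CPM over the 12 libraries, which share depth and scaling, and r is given as a description. For Mmp3 it was Tmem158 (r = 0.99), for Mmp10 Lingo2 (0.98), for Mmp13 Steap2 (0.96), for Mmp2 Dkk3 (0.98), for Mmp9 Lclat1 (0.98) and for Mmp14 Cnn3 (0.997). For Mmp11 it was Cyhr1 (0.92), for Timp1 Tmem33 (0.97), for Timp2 Fam212b (0.91) and for Timp3 Gpc6 (0.98). Among members, the highest r was 0.93, between Mmp2 and Timp3, and Mmp13 and Mmp10 followed at 0.84. Over all members, the median log2 differences from 61Q/Q were −0.15 in 61R/R, −0.06 in 61H/H cells and −0.21 in 61P/P, where those over all genes were 0.01 in each.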

How the data were processed

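Total RNA was depleted of ribosomal RNA and sequenced as stranded, paired-end libraries. The authors used STAR (mm10), Picard 2.17.11 and featureCounts, and the deposited values analysed here are raw counts per gene. Strand and read-pair settings of featureCounts are not given in the sources used here, and 67.3% of values from 1 to 20 were even. A deposited table of normalized counts was not used. Rn45s took 8.89% to 13.9% of counts.

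Low genes were dropped by filterByExpr with genotype as the group (edgeR 4.0.16, R 4.3.3). TMM factors were computed on the genes kept, and the summed counts of all genes in the count table served as library sizes. One model of 12 libraries had a mean per genotype, 6 pairs of genotypes were compared by quasi-likelihood F tests, and the Benjamini-Hochberg method was applied over 15759 genes. Scripts were tested on simulated data. Log2 CPM had a prior count of 2, and RPKM used the gene lengths of the count table. Intervals of 95% used the SE, taken from the fold change and its F, and the degrees of freedom of the model. Replicates are cultures of separate embryos.

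As alternatives, scaling was changed to RLE or upper quartile, the filter was removed or set at 1 CPM in each library, replicate number was added as a block, each pair of genotypes was fitted alone, DESeq2 1.42.0 and limma-voom (limma 3.58.1) replaced edgeR, and each library was left out. A further alternative, without both 61R/R replicate 1 and 61Q/Q replicate 2, was chosen after seeing the data.

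The members and the gene lists were chosen with earlier results of these data known. The text names all 10 members, up to 4 genes per list by smallest p relative to 61Q/Q, other metalloproteinase genes averaging 0.5 CPM or more, and per member the most similar gene among those averaging 1 CPM or more, leaving out predicted genes. Genes named outside this rule are said to be so or are markers. The results for 1 gene that this rule picks are not reported here. Promoter sequences came from RefSeq (GRCm38.p6).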

Additional observations from a re-analysis of the deposited data

How the results depend on the processing

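Between 61R/R and 61Q/Q, 2 of the 10 members were called, against 5 with the replicate block, 0 in a fit of only those genotypes, 4 with DESeq2 and 5 without 61R/R replicate 1 and 61Q/Q replicate 2. Between 61R/R and 61P/P, 3 were called, against 1 in a fit of only those genotypes. Leaving out each library gave 0 to 6 calls for 61R/R and 2 to 5 for 61H/H and 0 to 2 for 61P/P, each relative to 61Q/Q, and 0 to 4 for 61R/R and 0 to 3 for 61H/H relative to 61P/P. The counts under the other alternatives were within 1.5 times, and no alternative called a member between 61R/R and 61H/H. The share of all genes called under each alternative is not given beside these counts, so the changes cannot be read as particular to the members. Replicate numbers follow the sample descriptions, while the titles of the 61H/H, 61P/P and 61Q/Q libraries carry other numbers. No pairing of same-numbered libraries is named in the sources used here. Their deviations correlated at −0.0778 to 0.344 and above 0.1 in 6 of 18 pairs. Pairs with different numbers were not computed, so these values cannot show whether same-numbered libraries shared a batch. With the replicate block, Mmp2, Mmp10 and Timp3 were called in 61R/R (edgeR adjusted p = 0.0455, 0.0144 and 0.0196) and Mmp10 in 61P/P (0.0259), all relative to 61Q/Q, and Timp3 in 61H/H relative to 61P/P (0.0457). Differences near 0 changed sign. For Timp2 in 61R/R relative to 61Q/Q the log2 difference was 0.0038 with upper quartile scaling, 0.0049 without a filter, 0.0025 with the replicate block, 0.0036 in the fit of only those genotypes and 0.0049 with limma-voom. Mmp13 in 61H/H relative to 61Q/Q was at 0.00032 without a filter and 0.00055 with limma-voom, and Mmp3 in 61R/R relative to 61H/H at −0.0035 with limma-voom. Leaving out each library gave sign changes relative to 61Q/Q for Timp2 in 61R/R (−0.089 to 0.079), Mmp11 and Mmp13 in 61H/H (−0.045 to 0.072 and −0.11 to 0.053), and Mmp11 (−0.069 to 0.052), Timp1 (−0.35 to 0.0067), Timp3 (−0.65 to 0.12), Mmp1a (−1.56 to 2.37) and Mmp1b (−0.62 to 0.095) in 61P/P. Relative to 61P/P it did so for Timp1 (−0.13 to 0.22) and Mmp17 (−0.65 to 0.11) in 61R/R, and for Mmp9 (−0.24 to 0.66), Mmp11 (−0.021 to 0.075), Timp1 (−0.12 to 0.24) and Timp2 (−0.064 to 0.063) in 61H/H. Between 61R/R and 61H/H the ranges that crossed 0 were those of Mmp3 (−0.13 to 0.47), Mmp14 (−0.060 to 0.16), Timp1 (−0.081 to 0.069) and Timp3 (−0.10 to 0.24). None of these sign changes was of a called difference, and the cause was not tested.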
